A study of Mus musculus with 6 samples.

Results

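The genes described here were 10 members of the YAP, TAZ and TEAD pathway, which is the transcriptional end of Hippo signalling. They were taken by gene symbol after the Ensembl identifiers of the count table had been matched to mouse symbols. They comprised the coactivators Yap1 and Wwtr1, the transcription factors Tead1, Tead2, Tead3 and Tead4, the kinases Lats1 and Lats2, and Amotl2 and Ankrd1, which are both target genes of the pathway. All 10 were found among the 54752 genes of the table, and all 10 were among the 9518 genes that were tested, each with a CPM, the count scaled to a common library size, of at least 10 in all 6 libraries. The CCN genes, which are also targets of YAP and TAZ, were not included.

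The libraries were total RNA from NIH/3T3 cells, an immortalized line of mouse embryonic fibroblasts, grown in DMEM complete medium, with 2 replicates in each of 3 groups. One group received PBS as vehicle, another 1 ng/ml TGF-β1 plus DMSO, and the last 1 ng/ml TGF-β1 plus 5 μM BI6727, in each case over 72 h. TGF-β1 is a cytokine that drives fibroblasts towards myofibroblasts, and BI6727, also called volasertib, is an inhibitor of the mitotic kinase PLK1. The first comparison asked what TGF-β1 did to gene expression, and the second what the inhibitor did in the presence of TGF-β1. By the labels, DMSO was present in the TGF-β1 + DMSO group and not in the vehicle group, although a figure caption of the study names DMSO as the control. DMSO and TGF-β1 therefore cannot be told apart in the first comparison. The labels name no solvent for BI6727, so whether the solvent differed in the second comparison is not known. Below, DMSO or BI6727 as the name of a group stands for the TGF-β1 + DMSO or the TGF-β1 + BI6727 group. A change said to be with DMSO is one between TGF-β1 + DMSO and vehicle. All libraries came from 1 cell line, and the labels number the replicates without saying whether they were separate cultures. Per the methods text, cells were grown as 2 replicates a group, while 3 biological replicates are mentioned for the RNA, and neither is tied to these libraries, so that the p-values are taken to measure the spread between these libraries, which may be technical.

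YAP, encoded by Yap1, and TAZ, encoded by Wwtr1, are coactivators without a DNA-binding domain of their own, and they reach DNA by binding the TEAD factors. The kinases LATS1 and LATS2 phosphorylate YAP and TAZ and keep them in the cytoplasm, so that much of the control of the pathway lies in protein phosphorylation and location and not in the amount of transcript. In fibroblasts the pathway responds to cell spreading and matrix stiffness, and it is known to cooperate with TGF-β signalling. Only RNA levels were measured here. Those of the coactivators, TEAD factors and kinases therefore do not show the activity of the proteins, and those of target genes are at most an indirect readout of it.

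TEAD factors recognise the motif GGAATG, and the promoters of the members were searched for it on both strands. The promoter sequences came from RefSeq on the GRCm38.p6 build and spanned 300 bases, from 250 before to 50 after each start site. Of the 10 members, 8 had at least 1 such sequence, in 12 windows, of which some overlap. At least 1 match was found for 6 of the 8, namely Yap1, Wwtr1, Tead3, Lats2, Amotl2 and Ankrd1, while the windows of Tead2 and Lats1 held none. Tead1 and Tead4 had no entry. The motif was present in 14.7% of all 32851 windows and in 16.6% of the 27025 genes that had one, so a match is common, and it describes letters and not a bound site. The pieces below are printed for the 2 coactivators and for the 2 target genes, while those of Tead3 and Lats2 are left out. Each is given as 30 bases read 5′ to 3′ along the gene, with the motif or its reverse complement in capitals.
Yap1, chr9:8004720-8004749, minus strand, match from 141 bases before the start: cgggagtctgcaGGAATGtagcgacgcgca
Wwtr1, chr3:57576029-57576058, minus strand, match from 136 bases before the start: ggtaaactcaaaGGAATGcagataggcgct
Amotl2, chr9:102717727-102717756, plus strand, match from 65 bases before the start, motif on the opposite strand: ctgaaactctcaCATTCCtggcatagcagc
Ankrd1, chr19:36120037-36120066, minus strand, match from 210 bases before the start: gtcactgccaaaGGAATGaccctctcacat
Ankrd1, chr19:36119950-36119979, minus strand, match from 123 bases before the start: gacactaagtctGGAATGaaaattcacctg
Ankrd1 thus had 2 matches in 1 window, and 1 of the 3 windows of Tead3 held 3, while 1.36% of all windows held 2 or more. Distances were counted from the RefSeq start, and some Gencode transcript models of Ankrd1 and Amotl2 begin elsewhere. Among the 17 other target genes examined below, 11 had a window and 3 of them, Axl, Crim1 and Ptpn14, held a match.

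The 6 libraries held between 18362378 and 24452153 counts on genes, with counts on 18911 to 19891 genes each, and 54723 of the gene identifiers matched a symbol. The replicates of the TGF-β1 + DMSO group lay farther apart than those of the other groups, with an SD of the log2 difference between replicates of 0.38 over the tested genes, against 0.16 for vehicle and 0.15 for BI6727. In the DMSO group the gap followed gene length, with long genes lower in replicate 2. The 7 fibroblast markers summed to between 7696 and 10059 normalized CPM in the 6 libraries, and none of them was at 0. Vim made up 4014 to 5126 of that sum, and the markers did not move together. Pdgfra fell with TGF-β1 + DMSO against vehicle (0.274-fold, edgeR adjusted p = 0.00195). With TGF-β1 + BI6727 against vehicle, Pdgfra (0.287-fold, edgeR adjusted p = 0.00213) and Pdgfrb (0.435-fold, adjusted p = 0.0093) fell. The other 5 did not pass in any comparison. The 4 epithelial markers summed to between 0.363 and 1.98 normalized CPM and the 5 leukocyte markers to between 0.994 and 2.70, while the 4 endothelial markers summed to between 0.312 and 3.77. The markers with no counts in any library included Krt5, Cd3e, Adgre1 and Kdr. The endothelial sum was 0.312 and 0.910 in vehicle, 3.77 and 2.89 with DMSO, and 2.00 and 2.65 with BI6727, and the epithelial sum was 0.363 and 0.501, then 1.98 and 1.83, then 1.00 and 0.455. Both of these sums were higher in the DMSO libraries than in vehicle. The part of these markers in the results was not tested.

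Compared per kilobase of exon, Wwtr1 and Tead2 stood above the other members in every group. In the vehicle group Wwtr1 had 35.9 ± 1.12 normalized CPM per kb (SD, n = 2) and Tead2 had 34.9 ± 2.80, and the libraries of these genes overlapped. Yap1 followed at 16.3 ± 0.20, then Amotl2 at 13.3 ± 0.18 and Lats1 at 11.0 ± 0.34. Lower in the order were Tead4 at 7.79 ± 1.96, Ankrd1 at 7.32 ± 0.11 and Tead3 at 7.23 ± 0.010, 3 genes whose libraries overlapped. Tead1 had 5.39 ± 0.22 and Lats2, the lowest, 2.67 ± 0.27. With TGF-β1 and DMSO, Ankrd1 reached 15.4 ± 3.39 normalized CPM per kb, a level that overlapped those of Amotl2, at 16.4 ± 0.25, and of Yap1, at 14.2 ± 2.44. In the same group Wwtr1, at 48.9 ± 3.35, no longer overlapped Tead2, at 41.5 ± 4.82, and Tead1, at 2.96 ± 0.97, overlapped Lats2, at 2.96 ± 0.44.

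**Figure D1:**
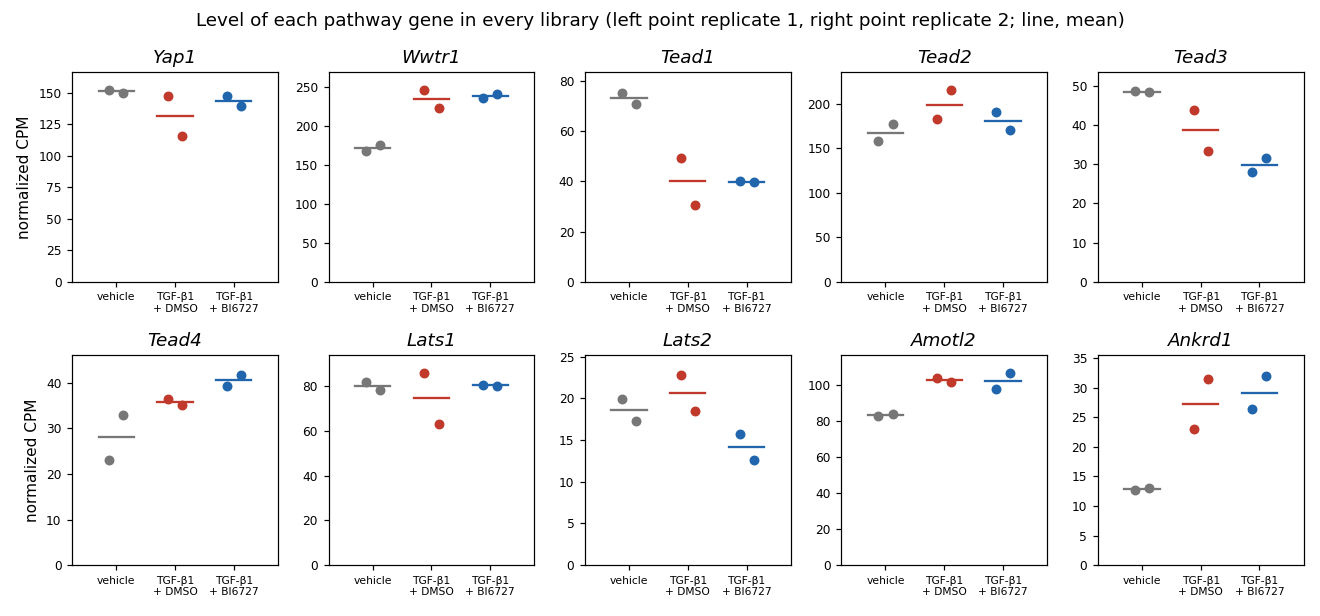
Normalized CPM (vertical axes, each from 0) of the 10 pathway genes in the 6 libraries, with vehicle in grey, TGF-β1 + DMSO in red and TGF-β1 + BI6727 in blue, replicate 1 on the left and replicate 2 on the right, and a line at each group mean. The vehicle libraries lie below all 4 others for Wwtr1, Tead4, Amotl2 and Ankrd1 and above all 4 others for Yap1, Tead1 and Tead3.

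Between TGF-β1 + DMSO and vehicle, 1 of the 10 members passed, which took a p-value below 0.01 in the quasi-likelihood test of edgeR after Benjamini-Hochberg adjustment over all tested genes. That gene was Ankrd1, and it was higher. Of all tested genes, 9.82% passed in either direction, so the members' share of 10% was close to the background. The groups did not overlap for 8 of the 10 members, against 62.9% of all tested genes, and 3 of the 10 had an adjusted p below 0.05, against 23%. The median log2 fold change of the members was 0.20, against -0.0045 over all tested genes, with 6 members higher and 4 lower. In bulk RNA a lower level of a transcript in each cell cannot be told apart from fewer cells of a kind that express it.

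Yap1 is on chromosome 9 of the mm10 build, from 7931999 to 8004596 on the minus strand (ENSMUSG00000053110.13). It had 152.2 and 149.6 normalized CPM in the vehicle libraries, 147.2 and 115.3 with TGF-β1 and DMSO, and 147.6 and 139.4 with TGF-β1 and BI6727. All 4 treated libraries lay below vehicle, but 3 of them by little, and DMSO replicate 2 stood alone. The log2 fold change against vehicle was -0.20 ± 0.13 (SE; edgeR adjusted p = 0.283) with DMSO, with a 95% interval from -0.50 to 0.10.

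Wwtr1 is on chromosome 3, from 57455649 to 57575910 on the minus strand (ENSMUSG00000027803.14). Its levels were 167.6 and 175.1 normalized CPM in vehicle, 245.1 and 222.4 with DMSO, and 234.8 and 241.0 with BI6727. The 4 treated libraries lay above both vehicle libraries, and the DMSO and BI6727 libraries overlapped. The difference between DMSO and vehicle was 1.36-fold, with a log2 fold change of 0.45 ± 0.095 and an adjusted p of 0.0154 in the same edgeR test, which did not pass. It passed in 4 of the 14 alternative fits, over which its log2 fold change ranged from 0.37 to 0.53.

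Since Wwtr1 and Yap1 encode the paired coactivators of one pathway, their ratio was followed in each library. Per kilobase, Wwtr1 was 2.13 and 2.27 times Yap1 in the vehicle libraries, 3.22 and 3.74 times with DMSO, and 3.08 and 3.35 times with BI6727. As log2 ratios these were 1.14 ± 0.063 (SD, n = 2), 1.80 ± 0.15 and 1.68 ± 0.085. The vehicle ratios lay below all 4 treated ones, and the DMSO and BI6727 ratios overlapped. With 2 libraries a group, an exact two-sided permutation test has a smallest p of 0.333, so no test was made of the ratio. Yap1, at 9257 bases of exon, is the longer gene, and the gap between the DMSO replicates moved with length, so the part of length in the ratio was not tested.

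Among the TEAD genes, Tead2 and Tead4 had higher values with TGF-β1 and DMSO than in vehicle, and Tead1 and Tead3 had lower values. None of them passed. Tead1 is on chromosome 7, from 112679318 to 112906807 on the plus strand (ENSMUSG00000055320.17). It had 75.3 and 71.0 normalized CPM in vehicle, 49.5 and 30.8 with DMSO, and 40.1 and 39.9 with BI6727. All 4 treated libraries lay below both vehicle libraries, and the BI6727 libraries fell between the 2 DMSO libraries. The DMSO level was 0.549 times that of vehicle, the largest difference among the members other than Ankrd1, with a log2 fold change of -0.87 ± 0.21 and an adjusted p of 0.0233 by edgeR, which did not pass. Tead1 has the longest exonic length of the members, 13570 bases.

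Tead2, on chromosome 7 from 45215753 to 45233644 on the plus strand (ENSMUSG00000030796.17), had 157.8 and 176.7 normalized CPM in vehicle, 182.6 and 215.2 with DMSO, and 190.5 and 169.9 with BI6727. The DMSO libraries lay above vehicle, and the BI6727 libraries overlapped both other groups. Its log2 fold change with DMSO was 0.25 ± 0.12 (adjusted p = 0.176, edgeR). Tead3, on chromosome 17 from 28331671 to 28350817 on the minus strand (ENSMUSG00000002249.21), had 48.6 and 48.5 normalized CPM in vehicle, 43.8 and 33.5 with DMSO, and 28.0 and 31.5 with BI6727. The 3 groups of Tead3 did not overlap and were ordered vehicle, DMSO, BI6727. Its log2 fold change with DMSO was -0.33 ± 0.15 (adjusted p = 0.159, edgeR). Tead4, on chromosome 6 from 128224288 to 128300823 on the minus strand (ENSMUSG00000030353.15), had 23.1 and 33.0 normalized CPM in vehicle, 36.6 and 35.2 with DMSO, and 39.3 and 41.8 with BI6727. The vehicle replicates of Tead4 stood farther apart on the log2 scale, by 0.52, than those of any other member, the 3 groups did not overlap, and the order was the reverse of that of Tead3. Its log2 fold change with DMSO was 0.35 ± 0.18 (adjusted p = 0.184, edgeR).

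Per kilobase the 4 TEAD genes summed to 52.2 and 58.6 normalized CPM in vehicle, 58.5 and 62.0 with DMSO, and 57.8 and 54.7 with BI6727. The vehicle range overlapped both others, while the BI6727 libraries lay just below the DMSO libraries. Tead2 made up most of the sum, at 63.1% ± 0.11 in vehicle, 68.9% ± 5.13 with DMSO and 66.8% ± 2.79 with BI6727 (SD, n = 2). The share of Tead1 was 9.79% ± 1.21 in vehicle, 4.95% ± 1.82 with DMSO and 5.24% ± 0.19 with BI6727, and that of Tead3 was 13.1% ± 1.09, 9.60% ± 2.20 and 7.89% ± 0.97. Tead4 took 14.0% ± 2.40 of the sum in vehicle, 16.6% ± 1.12 with DMSO and 20.1% ± 1.64 with BI6727. In single libraries, the shares of Tead1 and Tead3 were lower in all 4 treated libraries than in both vehicle libraries, and the shares of Tead2 and Tead4 were higher. Since the shares of a library add to 100%, they do not move independently, and no test was made of them.

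**Figure D2:**
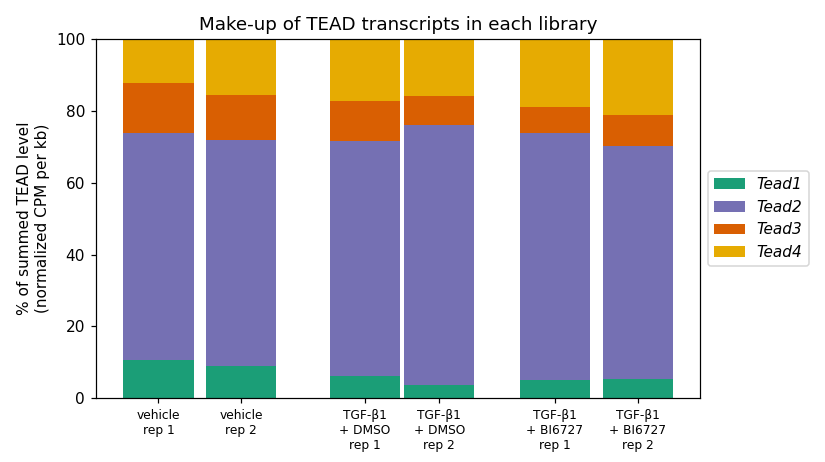
Share of each TEAD gene in the summed TEAD level of a library (vertical axis, percent of the summed normalized CPM per kb; 1 bar for each library). Tead2 holds between 63.0% and 72.5% of the sum in every library, and the Tead1 band is narrower in the 4 treated libraries, at 3.66% to 6.24%, than in vehicle, at 8.93% and 10.6%.

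Lats1 and Lats2 encode the kinases that restrain YAP and TAZ. Lats1, on chromosome 10 from 7681214 to 7716460 on the plus strand (ENSMUSG00000040021.13), had 82.0 and 78.5 normalized CPM in vehicle, 85.9 and 63.4 with DMSO, and 80.7 and 80.2 with BI6727. The groups overlapped, and the log2 fold change with DMSO was -0.11 ± 0.15 (edgeR adjusted p = 0.622). Lats2, on chromosome 14 from 57689662 to 57758388 on the minus strand (ENSMUSG00000021959.16), had 19.9 and 17.2 normalized CPM in vehicle, 22.8 and 18.4 with DMSO, and 15.7 and 12.5 with BI6727. The vehicle and DMSO libraries of Lats2 overlapped, and the log2 fold change was 0.15 ± 0.18 (adjusted p = 0.568), while both BI6727 libraries lay below all the others. Of the exonic length of Lats2, 42.4% is overlapped by another annotated gene, Gm49361, and the handling of strand in the counting is not given in the sources used here, so the values of Lats2 are uncertain. For the other 9 members this overlap was at most 1.25%. Per kilobase, the log2 ratio of Lats2 to Lats1 was -1.97 and -2.12 in vehicle, -1.85 and -1.71 with DMSO, and -2.30 and -2.61 with BI6727, so that the 3 groups did not overlap, with the same uncertainty.

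Amotl2 encodes an angiomotin family protein that binds YAP and TAZ, and it is itself a target of the pathway. On chromosome 9 from 102716672 to 102733418 on the plus strand (ENSMUSG00000032531.15), it had 82.7 and 84.2 normalized CPM in vehicle, 104.2 and 102.0 with DMSO, and 97.7 and 106.8 with BI6727. The 4 treated libraries lay above both vehicle libraries, and the treated groups overlapped. The difference between DMSO and vehicle was 1.24-fold, a log2 fold change of 0.30 ± 0.093 with an adjusted p of 0.0542 by edgeR, which did not pass.

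Ankrd1 encodes an ankyrin repeat protein of the nucleus and, in muscle, the sarcomere, and its transcript is widely used as a readout of YAP and TAZ. The gene lies on chromosome 19 from 36111965 to 36119844 on the minus strand (ENSMUSG00000024803.8) and, at 1765 bases, has the shortest exonic length of the members. It had 12.8 and 13.1 normalized CPM in vehicle, 23.0 and 31.4 with DMSO, and 26.5 and 32.0 with BI6727. Each of the 4 treated libraries was above both vehicle libraries, and the DMSO and BI6727 libraries overlapped. Ankrd1 rose 2.11-fold with TGF-β1 and DMSO, with a log2 fold change of 1.07 ± 0.19 (edgeR adjusted p = 0.00772, 95% interval 0.63 to 1.52). Over 14 alternative fits its log2 fold change ranged from 0.84 to 1.28, and 8 of them kept the call. The adjusted p was 0.0952 without vehicle replicate 1, 0.0787 without vehicle replicate 2, 0.0205 without BI6727 replicate 1 and 0.0212 without BI6727 replicate 2, none of which passed. Without DMSO replicate 1 it was 7.71e-07, and without DMSO replicate 2 it was 0.00031. Where an arm was left with 1 library, that library was taken to vary like the other groups.

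The number of members that passed depended on the library that was left out and on the test, and so did the background. Without DMSO replicate 1, 8 of 10 members, all but Tead4 and Lats2, passed between DMSO and vehicle, as did 47% of all tested genes. Without DMSO replicate 2, Wwtr1, Tead1, Amotl2 and Ankrd1 passed, with a background of 27.1%, and the log2 fold change of Tead1 was then -0.55. No member passed when either vehicle library or either BI6727 library was left out, with backgrounds between 1.33% and 4.47%. DESeq2 called Wwtr1, Tead1 and Ankrd1, against 18.7% of all genes.

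Part of the spread between the DMSO replicates ran with the length of the members. Tead1, with the longest exons, was lower in replicate 2 than in replicate 1 by a log2 difference of -0.68, while Ankrd1, with the shortest, was higher by 0.45. The trend over all tested genes at those lengths was -0.48 and 0.27. The other differences ran from -0.44 for Lats1 to 0.24 for Tead2, whose trend at 4788 bases was -0.05. When each library's trend on gene length was removed, 4 members passed between DMSO and vehicle, against a background of 19.2%. Wwtr1 then had a log2 fold change of 0.48 (adjusted p = 0.00151), Tead1 of -0.65 (adjusted p = 0.00134), Amotl2 of 0.39 (adjusted p = 0.00796) and Ankrd1 of 0.95 (adjusted p = 0.00107), all by edgeR. The values of Tead1 and Ankrd1 were thus smaller in size than before the trend was removed, when they were -0.87 and 1.07. Those of Wwtr1 and Amotl2 were slightly larger.

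**Figure D3:**
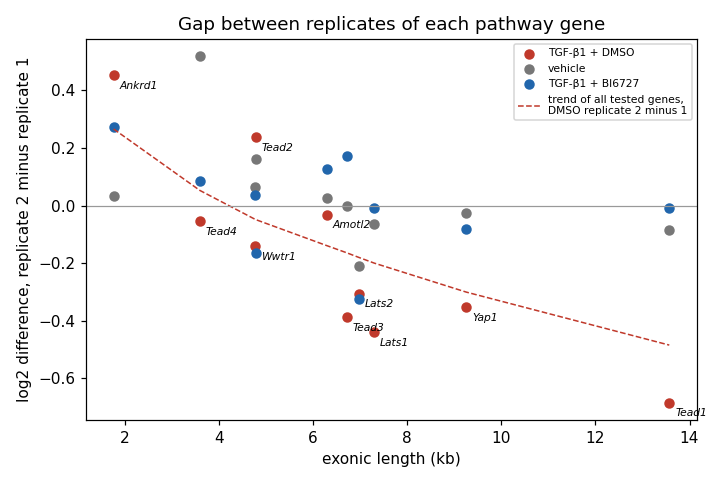
Log2 difference between replicate 2 and replicate 1 (vertical axis) of each pathway gene against its exonic length in kb (horizontal axis), for vehicle in grey, TGF-β1 + DMSO in red with gene names, and TGF-β1 + BI6727 in blue; the dashed line is the trend of all tested genes between the DMSO replicates. In red, Ankrd1 lies highest at 0.45 and Tead1 lowest at -0.68.

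Between TGF-β1 + BI6727 and TGF-β1 + DMSO, none of the 10 members passed, and neither did any of the 9518 tested genes in edgeR's quasi-likelihood test, a background of 0%. DESeq2 also called no member, against 0.263% of all genes. At an unadjusted p below 0.05, 2 members were lower with BI6727 and none was higher, while 4.52% of all tested genes were lower and 2.16% higher. Those 2 were Lats2, with a log2 fold change of -0.55 ± 0.18 (unadjusted p = 0.0186, adjusted p = 0.676 in edgeR), and Tead3, with -0.38 ± 0.15 (unadjusted p = 0.0433, adjusted p = 0.738 in edgeR). The groups did not overlap for 3 of the 10 members, Tead3 and Lats2 with lower and Tead4 with higher values in the BI6727 libraries, against 34.1% of all tested genes.

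For the other members the 95% intervals of the log2 difference between BI6727 and DMSO were wide next to the differences. The interval ran from -0.33 to 0.53 for Ankrd1, around a log2 fold change of 0.10, and from -0.49 to 0.48 for Tead1, around -0.01. For Wwtr1 it ran from -0.20 to 0.25, and for Amotl2 from -0.23 to 0.21, which are the narrowest of the members. Yap1 had an interval from -0.17 to 0.43, Lats1 from -0.24 to 0.45, Tead2 from -0.43 to 0.14 and Tead4 from -0.23 to 0.59. These intervals hold the differences that the 2 libraries a group leave possible, and a missed threshold does not show that the groups were alike. The result depended on the DMSO libraries: without DMSO replicate 1, Yap1 and Lats1 passed with log2 fold changes of 0.32 and 0.35, where 17.5% of all genes passed, and without DMSO replicate 2, Tead3 passed with -0.57, where 2.43% did.

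The BI6727 libraries were also compared with vehicle, a comparison that shares its vehicle libraries with the first. Again 1 of the 10 members passed, against 10.9% of all tested genes, and it was Ankrd1, which rose 2.26-fold with a log2 fold change of 1.18 ± 0.19 (edgeR adjusted p = 0.00488). The call was lost without vehicle replicate 1 (adjusted p = 0.0694), vehicle replicate 2 (0.0606), BI6727 replicate 1 (0.0249) or BI6727 replicate 2 (0.0536). The groups did not overlap for 8 of the 10 members, against 76.8% of all tested genes, and 4 of the 10 had an adjusted p below 0.05, against 24.5%. The members nearest to the threshold were Wwtr1, at 0.47 on the log2 scale (adjusted p = 0.0115), Tead3, with -0.71 (0.0158), and Tead1, with -0.87 (0.0212). Tead4 had 0.53 (adjusted p = 0.0667), Amotl2 0.29 (0.0581), Lats2 -0.40 (0.155), Tead2 0.11 (0.561), Yap1 -0.07 (0.718) and Lats1 0.003 (0.991). In a fit of the BI6727 and vehicle libraries alone, whose replicates lay closer together, 6 members passed, namely Wwtr1, Tead1, Tead3, Tead4, Amotl2 and Ankrd1, where 41.6% of all genes passed. The same number passed in the fit without DMSO replicate 1 and in that without DMSO replicate 2.

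**Figure D4:**
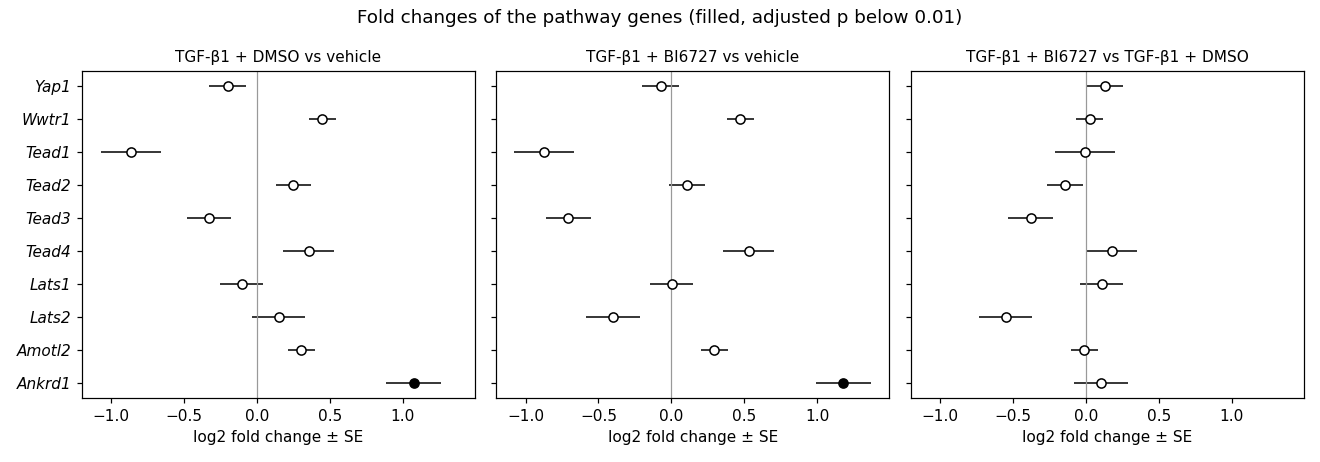
Log2 fold change of each pathway gene (horizontal axis, point with a bar of ± 1 SE) in the 3 comparisons, filled where the edgeR adjusted p was below 0.01. Ankrd1, at 1.07 and 1.18, is the only filled point, in both comparisons with vehicle, and no point of the comparison of BI6727 with DMSO is filled.

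The other genes of the pathway were examined by 3 lists, of targets, of upstream Hippo components and of binding partners. Of 17 other targets of YAP and TAZ, 12 were tested. With TGF-β1 and DMSO, Nuak2 and Gadd45a rose and no tested target fell. Nuak2 and Rbms3 were below 10 CPM in some libraries, Nuak2 in both vehicle libraries, so that Nuak2 was tested only because of its high treated libraries. Of the 10 targets that reached 10 CPM in all 6 libraries, 1 rose and none fell, against 4.92% and 4.91% of all tested genes, with a median log2 fold change of -0.21. Nuak2, a kinase of the AMPK-related family, had 4.62 and 5.51 normalized CPM in vehicle, 29.1 and 32.5 with DMSO, and 26.1 and 31.8 with BI6727. It rose 6.06-fold with DMSO, a log2 fold change of 2.60 ± 0.18 (edgeR adjusted p = 0.000142). Gadd45a, a growth arrest and DNA damage response gene, had 20.1 and 18.9 normalized CPM in vehicle, 45.3 and 54.0 with DMSO, and 50.7 and 51.2 with BI6727. Gadd45a rose 2.55-fold with DMSO, a log2 fold change of 1.35 ± 0.13 (edgeR adjusted p = 0.000598). Another annotated gene, E230016M11Rik, overlaps 19.1% of its exonic length. The call of Gadd45a was lost without vehicle replicate 1 and without vehicle replicate 2, and its log2 fold change ranged from 1.23 to 1.46 over the 14 alternative fits. How often Nuak2 kept its call is not counted, since it was tested only because of its high treated libraries.

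F3, which encodes tissue factor, had 96.3 and 73.3 normalized CPM in vehicle, 45.7 and 57.5 with DMSO, and 32.6 and 31.6 with BI6727. Its 3 groups did not overlap. The log2 fold change of F3 was -0.72 with DMSO (edgeR adjusted p = 0.0223), which did not pass, and -0.69 between BI6727 and DMSO (unadjusted p = 0.00463, adjusted p = 0.58), which did not pass either. F3 fell between vehicle and BI6727, by 1.40 on the log2 scale (edgeR adjusted p = 0.00153). Crim1, a membrane protein that binds BMP ligands, had a log2 fold change of 0.66 with DMSO (adjusted p = 0.0111) and rose by 0.72 with BI6727 against vehicle (adjusted p = 0.00717). Of the 10 targets at 10 CPM in all 6 libraries, 2 rose with BI6727 against vehicle and 1 fell, with backgrounds of 4.94% and 5.99%. Without BI6727 replicate 1 the adjusted p was 0.0223 for F3 and 0.0666 for Crim1, and without BI6727 replicate 2 it was 0.0255 and 0.0705. Without vehicle replicate 1 it was 0.0236 for F3 and 0.0977 for Crim1, and Crim1 had 0.0514 without vehicle replicate 2. No target passed between BI6727 and DMSO.

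Among the 31 Hippo kinases, adaptors and regulators, 27 were tested, and 2 rose and none fell with TGF-β1 and DMSO, a share of 7.41% against 9.82% of all tested genes, with a median log2 fold change of 0.01. Wwc1, also called KIBRA, is an adaptor that promotes LATS activity, and it had 19.5 and 25.3 normalized CPM in vehicle, 41.0 and 55.6 with DMSO, and 35.6 and 35.2 with BI6727. It rose 2.15-fold with DMSO (edgeR adjusted p = 0.00679). Between BI6727 and DMSO its log2 fold change was -0.45 (unadjusted p = 0.0449, adjusted p = 0.738), and against vehicle the BI6727 libraries gave 0.66 (adjusted p = 0.0424), neither of which passed. Rassf1, a scaffold that binds the kinases upstream of LATS, had 23.1 and 25.0 normalized CPM in vehicle, 39.3 and 46.8 with DMSO, and 44.1 and 42.8 with BI6727. It rose 1.79-fold with DMSO (edgeR adjusted p = 0.00489) and 1.81-fold with BI6727 against vehicle (adjusted p = 0.00416). Another annotated gene, Gm9917, overlaps 42.7% of the exonic length of Rassf1, so its values are uncertain. The core kinase Stk3, which phosphorylates LATS, had a log2 fold change of -0.36 with DMSO (adjusted p = 0.0433), and its paralog Stk4 of -0.07 (adjusted p = 0.753), and neither passed. Leaving out either vehicle library ended the calls of both Wwc1 (adjusted p = 0.0896 and 0.0351) and Rassf1 (0.081 and 0.0502), as did leaving out either BI6727 library (0.0224 and 0.0229 for Wwc1, 0.0208 and 0.0215 for Rassf1). The rise of Rassf1 with BI6727 against vehicle was lost without either vehicle library (0.0673 and 0.046) and without either BI6727 library (0.0516 and 0.044).

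Of the 11 other binding partners of YAP, TAZ or TEAD, 9 were tested. Csnk1e, a casein kinase that phosphorylates YAP and TAZ, had 56.5 and 56.2 normalized CPM in vehicle, 93.8 and 82.5 with DMSO, and 93.5 and 86.6 with BI6727, and was the only partner that passed with DMSO, a share of 11.1% against 9.82% of all tested genes. It rose 1.57-fold (edgeR adjusted p = 0.00598), and 1.6-fold with BI6727 against vehicle (adjusted p = 0.00456). Vgll3, a cofactor that binds TEAD at the surface used by YAP and TAZ, had 35.5 and 32.1 normalized CPM in vehicle, 18.9 and 19.2 with DMSO, and 16.7 and 12.5 with BI6727. Its groups did not overlap. The log2 fold change of Vgll3 was -0.83 with DMSO (adjusted p = 0.0129), which did not pass, and it fell by 1.21 on the log2 scale between vehicle and BI6727 (edgeR adjusted p = 0.00272). Fbxw11, a subunit of the ubiquitin ligase that targets YAP and TAZ, had 124.6 and 123.8 normalized CPM in vehicle, 126.3 and 113.2 with DMSO, and 145.5 and 135.8 with BI6727, with a log2 fold change of 0.23 between BI6727 and DMSO (unadjusted p = 0.0491, adjusted p = 0.744). The call of Csnk1e with DMSO was lost without vehicle replicate 1 (adjusted p = 0.0837) or 2 (0.074) and without BI6727 replicate 1 (0.0249) or 2 (0.0253). Its call with BI6727 was lost in the same 4 fits, with adjusted p from 0.0412 to 0.067, and the call of Vgll3 with BI6727 was lost without vehicle replicate 1 (0.0443) or 2 (0.0281) and without BI6727 replicate 1 (0.0115) or 2 (0.0341). With BI6727 against vehicle, 2 of the 9 partners (22.2%) and 1 of the 27 upstream components (3.7%) passed, against 10.9% of all tested genes. Between BI6727 and DMSO, none of the tested genes of these 3 lists passed, and the medians of their log2 fold changes were 0.05 for the targets, 0.04 for the upstream components and 0.15 for the partners.

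**Figure D5:**
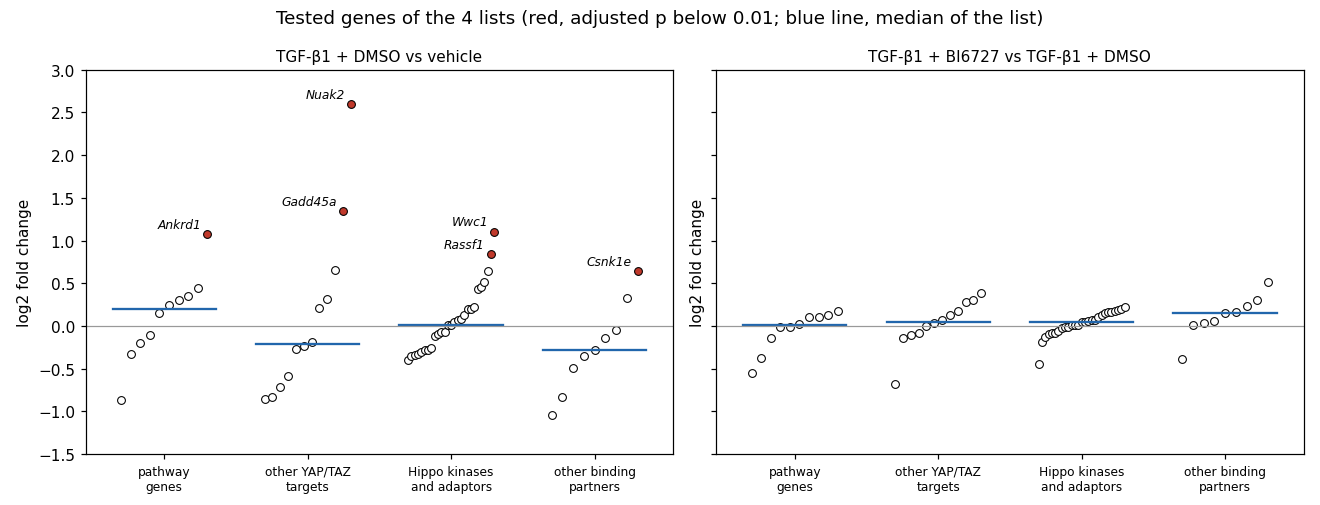
Log2 fold change (vertical axis) of every tested gene of the 10 pathway members, 12 targets, 27 upstream components and 9 binding partners, with TGF-β1 + DMSO against vehicle on the left and TGF-β1 + BI6727 against TGF-β1 + DMSO on the right; red points passed and are named, and blue lines are medians. On the left, 6 genes are red, all above 0. They are 10% of the members, 16.7% of the targets, 7.41% of the upstream components and 11.1% of the partners, against 9.82% of all tested genes. Nuak2, highest at 2.60, was tested only because of its high treated libraries. On the right no point is red, against 0% of all tested genes.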

How the data were processed

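RNA of 6 NIH/3T3 libraries was sequenced and, per the labels and the study's methods, the authors aligned the reads with Subjunc (Subread 1.6.4) to mm10, counted them over Gencode M20 genes with featureCounts, and deposited raw counts per gene. The extraction protocol of the labels speaks of ground tissue although the samples are cultured cells. Whether the counting used strand is not given in the sources used here.

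A gene was tested if it reached 10 CPM in more than 3 libraries, as in the study's methods. The test was that of edgeR 4.0.16 in R 4.3.3 (TMM scaling, quasi-likelihood test, 1 fit of all 6 libraries with 3 residual degrees of freedom, no covariate), and a gene passed when its p-value, adjusted by Benjamini-Hochberg, was below 0.01. Normalized CPM are relative to TMM-scaled totals, and levels per kb were divided by the exonic length of the count table. Standard errors are the log2 fold change over the square root of the F statistic. Intervals cover the fit's error, and library totals, from 18362378 to 24452153 counts, set the counting error. Alternatives were DESeq2 1.42.0, its size factors, other filters, other thresholds, the 2 groups alone, a replicate block, a gene length offset (lowess of span 0.3) and each library left out in turn; a crossed block was added after seeing the data. The procedure was also run on simulated counts, in which each gene had the same spread in every group. The DMSO replicates here lay farther apart than the others, so that run does not cover this feature.

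The members, the gene lists and the tests were chosen with earlier results of these data known. Named were all members and, of the other lists, the genes that passed in a comparison with vehicle or had an unadjusted p below 0.05 between BI6727 and DMSO; Stk3, Stk4, Rbms3, Pdgfra, Pdgfrb and the genes at low levels were named after their values were seen. Gene positions are those of mm10 in the count table, and promoter sequences are RefSeq's on GRCm38.p6. Overlapping genes were found from the exon positions in the count table. Some marker genes are not reported here by name. The other experiments of the study were not analysed here.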

Additional observations from a re-analysis of the deposited data

How the results depend on the processing

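Of the fold changes of named genes in other settings, 656 kept their direction and side of the threshold, 64 passed where they had not, 51 no longer passed and 27 changed sign, all 27 of them for fold changes that had not passed. The cause was not tested, beyond the fact that some fits held fewer libraries or other genes. In the counts that follow, a list not named for a setting may still hold genes that passed. The counts of targets against vehicle include Nuak2, which was tested only because of its high treated libraries. They can also include Rbms3, which was below 10 CPM in some libraries. The shares of all genes therefore do not match these counts in how the genes were chosen. With DESeq2, 3 members, 6 targets, 4 upstream components and 3 partners passed between DMSO and vehicle, and 4 members and 3 upstream components between BI6727 and vehicle, where 18.7% and 19.2% of all genes passed. With a gene length offset the numbers were 4, 6, 5 and 3 for DMSO (all genes, 19.2%). For BI6727, 4 members, 7 targets, 4 upstream components and 3 partners passed with that offset (all genes, 21.1%). With only the 2 groups compared, 0 members, 0 upstream components and 0 partners passed for DMSO, and 6 members, 9 targets, 13 upstream components and 4 partners for BI6727 (all genes, 4.49% and 41.6%). Other filters (filterByExpr, or at least 10 counts in total) gave 4 targets and 2 partners for DMSO (all genes, 9.73% and 8.16%). At an adjusted p below 0.05, 3 members, 6 targets, 5 upstream components and 4 partners passed for DMSO (all genes, 23%). For BI6727, 4 members, 6 targets, 6 upstream components and 3 partners passed at that threshold (all genes, 24.5%). With a fold above 2 added to the adjusted p of 0.01, 1 member, 2 targets, 1 upstream component and 0 partners passed for DMSO (all genes, 5.1%). For BI6727, 1 member, 3 targets, 0 upstream components and 1 partner passed (all genes, 5.31%).

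Leaving out 1 library gave 0 to 8 members, 1 to 9 targets, 0 to 13 upstream components and 0 to 7 partners for DMSO against vehicle, 0 to 2, 0 to 5, 0 to 6 and 0 to 3 for BI6727 against DMSO, and 0 to 6, 1 to 9, 0 to 13 and 0 to 4 for BI6727 against vehicle, where the shares of all genes ran from 1.33% to 47%, 0% to 17.5% and 1.71% to 41.6%. In these fits the log2 fold change between BI6727 and DMSO took both signs for Yap1 (-0.050 to 0.32), Wwtr1 (-0.056 to 0.10), Tead1 (-0.32 to 0.38), Lats1 (-0.11 to 0.35), Amotl2 (-0.074 to 0.052), Ankrd1 (-0.10 to 0.34), Gadd45a (-0.081 to 0.16), Nuak2 (-0.23 to 0.047), Rassf1 (-0.10 to 0.13), Csnk1e (-0.074 to 0.13) and Crim1 (-0.083 to 0.22). So did that between DMSO and vehicle for Lats1 (-0.35 to 0.11), Lats2 (-0.015 to 0.31) and Fbxw11 (-0.14 to 0.036), and that between BI6727 and vehicle for Lats1 (-0.028 to 0.031). With the gene length offset the sign also turned for Rassf1 (-0.023) and Csnk1e (-0.012) between BI6727 and DMSO and for Yap1 (0.0049) between BI6727 and vehicle, and with filterByExpr for Tead1 (2.34e-06) between BI6727 and DMSO.

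Same-numbered replicates did not deviate together (r = -0.11 between DMSO and vehicle, -0.26 between BI6727 and DMSO, 0.047 between BI6727 and vehicle). With 2 replicates a group these values cannot settle whether same-numbered libraries were prepared together, and the labels do not say. The main fit used no pairing. With a replicate block, 1 member, 1 upstream component and 0 partners passed for DMSO (all genes, 6.56%), and the log2 fold change of Tead1 between BI6727 and DMSO was 0.022. With the numbers of the DMSO group crossed, 0 members and 4 targets passed for DMSO (all genes, 9.76%), and Tead1 gave 0.012.

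Per count, with no division by length, the shares of the summed TEAD level in vehicle, DMSO and BI6727 were 23.1%, 12.8% and 13.8% for Tead1, 52.7%, 63.4% and 62.0% for Tead2, 15.3%, 12.3% and 10.3% for Tead3, and 8.80%, 11.4% and 14.0% for Tead4, and the log2 ratio of Wwtr1 to Yap1 was 0.18, 0.84 and 0.73. The order of the 3 groups was the same as per kilobase in each.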

Other observations

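Some listed genes lay below the filter on low counts. Under edgeR's filterByExpr, which tested 14604 genes, Fjx1, a target that encodes a secreted protein of the Golgi, had 2.86 and 2.05 normalized CPM in vehicle, 5.65 and 7.08 with TGF-β1 and DMSO, and 3.34 and 4.02 with TGF-β1 and BI6727. Fjx1 rose 2.62-fold with DMSO (adjusted p = 0.00858), and its log2 fold change between BI6727 and DMSO was -0.78 (unadjusted p = 0.0168, adjusted p = 0.63), which did not pass. Fat4, an atypical cadherin, had 0.831 and 1.05 normalized CPM in vehicle, 1.30 and 1.11 with DMSO, and 2.56 and 2.11 with BI6727, with a log2 fold change of 0.95 between BI6727 and DMSO (unadjusted p = 0.0293, adjusted p = 0.655). Tnik, a kinase of the MAP4K group, had 12 and 16 counts in vehicle, 49 and 60 with DMSO, and 20 and 42 with BI6727, and with DMSO it had an adjusted p of 0.0109 here and of 0.00947, which passed, among genes with at least 10 counts in total. Tgfb2, which encodes a ligand of the TGF-β family, had 115 and 137 counts in vehicle, 59 and 42 with DMSO, and 17 and 60 with BI6727, and did not pass (adjusted p = 0.0452 with DMSO). Igfbp3, Vgll1 and Vgll2 had 0 counts in all 6 libraries.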
